A study of Mus musculus with 12 samples.

Results

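Newly formed oligodendrocytes are the short stage between the dividing oligodendrocyte precursor and the myelinating cell, and 7 genes known to mark that stage were followed in purified mouse myelin: 9630013A20Rik, Il23a, Enpp6, Gpr17, Bmp4, Tns3 and Fyn. They were chosen by name, as 7 of the 21937 genes in the deposited table, and all 7 had a mean of at least 10 normalized reads over the libraries and so entered the tests. Myelin, the stack of membranes that oligodendrocytes wrap around axons, was purified as a light-weight membrane fraction from whole brains of wild-type male c57Bl6/N mice. The RNA of 3 mice at each of 4 ages was sequenced as 12 libraries, each from a different mouse, with no transgene and no treatment. The ages were 18 and 75 days after birth (P18 and P75) and 6 and 24 months. The libraries held between 20299052 and 27214385 reads on genes. Values are normalized read counts, that is, reads on a gene divided by a size factor of the library, and they are not divided by transcript length.

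A precursor that leaves the cell cycle becomes a premyelinating cell with many fine branches, and then either dies or wraps axons and switches on the genes of compact myelin. Most of this happens in the early postnatal weeks in the mouse brain and continues at a low rate in adults, where precursors still give rise to new oligodendrocytes. Gpr17 and Enpp6 are used to find such cells in tissue, 9630013A20Rik (also called lncOL1) is a long noncoding RNA of the stage, and Fyn is a kinase needed for precursors to extend processes and form myelin. In a bulk preparation, fewer cells of a type and less RNA per cell cannot be told apart, and myelin holds the RNA of cell processes rather than of sorted cells.

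The 7 genes took different courses over the 4 ages. 9630013A20Rik and Il23a were nearly lost, at 0.802% and 1.56% of their P18 mean by 24 months. Gpr17 and Enpp6 were lower at P75 than at P18, higher again at 6 months and lower at 24 months. Bmp4 was lower at P75 and its later ages overlapped, Fyn was lower at P75 and lower again at 24 months, and the mean of Tns3 at 24 months was still 70.9% of that at P18. Of the 7, 5 genes (9630013A20Rik, Il23a, Gpr17, Bmp4 and Fyn) were higher in every P18 library than in any later library, as were 14.5% of the 14634 genes tested, whereas the P18 values of Enpp6 overlapped those at 6 and 24 months, and those of Tns3 overlapped those at P75 and 6 months. These levels are a description, since the genes were chosen with earlier results known.

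**Figure D1:**
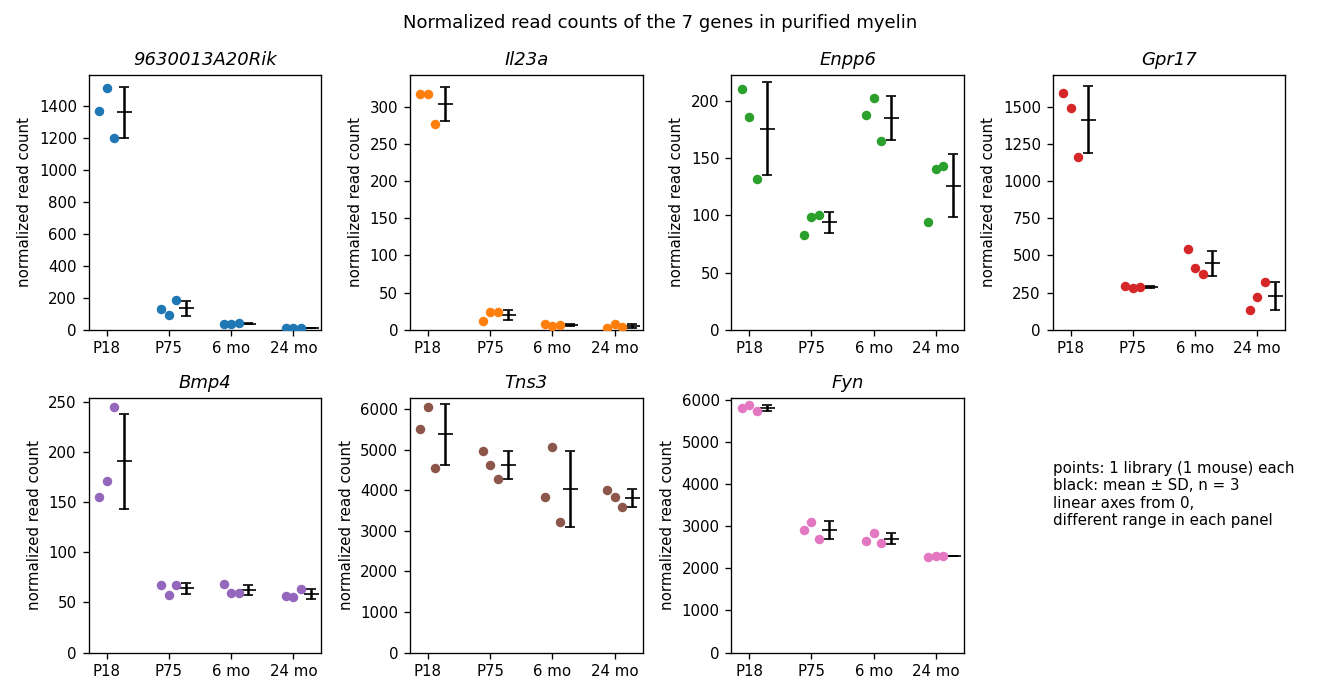
Normalized read count (linear axes from 0, a different range in each panel) of the 7 genes at the 4 ages, with 1 point per library and the mean ± SD (n = 3) in black. 9630013A20Rik and Il23a are near 0 after P75, and Enpp6 and Gpr17 have higher points at 6 months than at P75.

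The promoters of Il23a and Gpr17 were left out and were not searched. Those of the other 5 of the 7 genes were read as the 250 bases before the RefSeq start on GRCm38.p6. They were searched on both strands for the Sox family letters ACAAAG, the E-box CAGCTG and the TCF/LEF family letters ATCAAAG, which stand for factors that act in the oligodendrocyte lineage and do not overlap one another in these windows. Among 32851 promoter windows of the same length, 16.5%, 13.001% and 3.21% held them. The promoters of Enpp6, Bmp4 and Tns3 held none of the 3. The windows of the genes that held a match are shown, chr14:84476425-84476674 on the minus strand for 9630013A20Rik and chr10:39369549-39369798 on the plus strand for Fyn. They are printed 5′ to 3′ and the capitals mark the E-box, 73 bases before the start, and the TCF/LEF letters in reverse complement, 96 bases before the start.
9630013A20Rik: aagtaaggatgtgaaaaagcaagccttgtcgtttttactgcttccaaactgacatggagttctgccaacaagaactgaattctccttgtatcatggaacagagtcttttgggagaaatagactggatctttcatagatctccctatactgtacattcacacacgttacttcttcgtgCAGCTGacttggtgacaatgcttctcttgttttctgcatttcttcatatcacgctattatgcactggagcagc
Fyn: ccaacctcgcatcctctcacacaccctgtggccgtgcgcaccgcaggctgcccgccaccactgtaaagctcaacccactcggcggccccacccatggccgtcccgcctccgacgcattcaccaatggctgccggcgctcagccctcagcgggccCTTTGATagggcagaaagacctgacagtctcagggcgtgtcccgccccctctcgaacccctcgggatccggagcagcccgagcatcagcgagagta

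9630013A20Rik is a long noncoding RNA that RefSeq lists as lncOL1. At P18 its normalized read counts were 1370.1, 1516 and 1199 in replicates 1 to 3, a mean of 1362 ± 159 (SD, n = 3). At P75 they were 128, 91.8 and 184, at 6 months 34.1, 35.5 and 41.8, and at 24 months 7.93, 11.9 and 12.96. The 4 ages did not overlap in any neighbouring pair, and each step down was large: the mean was 10.1-fold lower at P75 than at P18, 3.62-fold lower at 6 months than at P75 and 3.40-fold lower at 24 months than at 6 months. At 24 months the values rest on 8 to 14 reads per library. On the log2(normalized read count + 1) scale, the changes were −3.38 ± 0.22 (SE), −1.78 ± 0.22 and −1.70 ± 0.22, and the last of these was tested (limma, adjusted p = 0.00029).

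Il23a encodes the p19 subunit of interleukin 23, a secreted cytokine that needs the partner subunit Il12b. On NCBIM37 (mm9) it lies at chromosome 10, 127733196 to 127735140, minus strand, with 4 merged exons of 1.359 kb. Its normalized read counts were 317, 316 and 277 at P18, 12.03, 23.2 and 24.3 at P75, 7.31, 5.33 and 6.81 at 6 months and 2.97, 7.57 and 3.70 at 24 months. The P18 libraries stood far above all others, the P75 libraries above those of 6 months, and the 6 and 24 month libraries overlapped. The mean was 304 ± 22.9 at P18 and 19.8 ± 6.79 at P75, 15.3-fold lower. From 6 to 24 months the change of −0.45 ± 0.31 on the log2 scale did not pass the test (adjusted p = 0.32, limma), with a 95% interval of −1.12 to 0.21. Il23a passed the filter on low values, a mean of at least 10, through its P18 and P75 libraries. At the 2 ages compared its means were 6.48 and 4.75, on 3 to 9 reads, so this test has little to say about it.

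Bmp4, a secreted ligand of the bone morphogenetic protein family that holds precursors back from differentiating, lies on chromosome 14, 47003195 to 47010344, minus strand. Its normalized read counts were 156, 172 and 245 at P18, 67.1, 57.5 and 67.4 at P75, 68.2, 59.5 and 59.4 at 6 months and 56.5, 55.1 and 63.9 at 24 months. All later libraries lay within a narrow band below P18, and the 3 later ages overlapped one another. The mean was 191 ± 47.7 at P18 and 64.0 ± 5.66 at P75, 2.98-fold lower. The later changes were −0.04 ± 0.17 up to 6 months and −0.09 ± 0.17 after it (limma, adjusted p = 0.87 and 0.75), with 95% intervals of −0.40 to 0.32 and −0.45 to 0.27. Bmp4 shares 89 exon bases, 4.002% of its own, with Gm15217 on the opposite strand, which had a mean of 0.674.

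Enpp6 encodes a choline-specific phosphodiesterase on the cell surface, and lies on chromosome 8, 48072279 to 48180249, plus strand. Its normalized read counts were 210, 186 and 132 at P18, 83.2, 98.3 and 101 at P75, 188, 203 and 165 at 6 months and 94.1, 141 and 143 at 24 months. The P75 libraries were below all P18 and 6 month libraries, the 6 month libraries were above all 24 month libraries, and the P75 and 24 month libraries overlapped. Between P75 and 6 months the mean rose 1.97-fold, from 94.0 ± 9.46 to 185 ± 19.0, a log2 change of 0.97 ± 0.19 (limma, adjusted p = 0.00038) that passed the test under all 24 alternatives. The P75 libraries of this rise are also those of the lower values after P18, known when the gene was chosen. Enpp6 then fell by 0.57 ± 0.19 on the log2 scale by 24 months (limma, adjusted p = 0.040), to a mean of 126 ± 27.7. That fall lost its call without 6 month replicate 1 (adjusted p = 0.111), without 6 month replicate 2 (0.133), without 24 month replicate 1 (0.181) and when libraries were scaled to the mature oligodendrocyte genes (0.331).

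Gpr17 is a G protein-coupled receptor related to the P2Y and cysteinyl leukotriene receptors, switched on in committed precursors and off again before myelination. It lies on chromosome 18, 32102651 to 32109290, minus strand. Its normalized read counts were 1592, 1490.3 and 1160.1 at P18, 292, 279 and 285 at P75, 542, 418 and 378 at 6 months and 136, 221 and 321 at 24 months. The P18 libraries were far above the rest, the 6 month libraries were above both P75 and 24 months, and the 24 month libraries spread on either side of the P75 values. The mean was 1414 ± 226 at P18 and 285 ± 6.27 at P75, 4.96-fold lower. It rose 1.56-fold by 6 months to 446 ± 85.6, a log2 change of 0.63 ± 0.22 (limma, adjusted p = 0.025). The call was lost without 6 month replicate 1 (adjusted p = 0.124) and with scaling to the mature oligodendrocyte genes (0.148). This rise also shares its P75 libraries with the comparison known when the gene was chosen. Gpr17 fell by 1.05 ± 0.22 on the log2 scale between 6 and 24 months, to 226 ± 92.9 (limma, adjusted p = 0.0054), a call kept under all 24 alternatives. Gpr17 shares 188 exon bases, 3.62% of its own, with Lims2 on the opposite strand, and whether the counting used strand is not given in the sources used here. Lims2 is a gene of the same stage and is among the genes compared further on.

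Tns3, which encodes tensin 3, an adaptor between integrins and the actin skeleton, was among the most abundant of the 7. It lies on chromosome 11, 8331655 to 8564538, minus strand. Its normalized read counts were 5522, 6048 and 4557 at P18, 4961, 4611 and 4284 at P75, 3835, 5058 and 3217 at 6 months and 4016, 3831 and 3584 at 24 months. Every pair of neighbouring ages overlapped, and all 24 month libraries lay below all P18 libraries. The mean went from 5376 ± 756 at P18 to 3810 ± 217 at 24 months. From P75 to 6 months the change was −0.22 ± 0.14 (limma, adjusted p = 0.19, 95% interval −0.51 to 0.07), and from 6 to 24 months −0.06 ± 0.14 (adjusted p = 0.80, 95% interval −0.35 to 0.23). Without 6 month replicate 2, the highest of its group, the change from P75 to 6 months was −0.39 (adjusted p = 0.016).

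Fyn, a Src family tyrosine kinase that acts downstream of axonal contact and on local translation of Mbp mRNA, lies on chromosome 10, 39088661 to 39285187, plus strand. Its normalized read counts were 5819, 5872 and 5729 at P18, 2919, 3109 and 2692 at P75, 2657, 2847 and 2600.1 at 6 months and 2281, 2297 and 2299 at 24 months. The P18 libraries were tightly grouped above all others, P75 and 6 months overlapped, and the 24 month libraries, with an SD of only 9.60, lay below all of them. The mean was 5807 ± 72.2 at P18 and 2907 ± 209 at P75, 1.998-fold lower. Between P75 and 6 months the change was −0.10 ± 0.08 (limma, adjusted p = 0.27, 95% interval −0.27 to 0.06). Fyn fell by 0.24 ± 0.08 on the log2 scale between 6 and 24 months (limma, adjusted p = 0.042), to 2292 ± 9.60. The call was lost without 6 month replicate 2 (adjusted p = 0.149), 24 month replicate 1 (0.104) or 24 month replicate 2 (0.114), and with scaling to the mature oligodendrocyte genes (0.851).

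**Figure D2:**
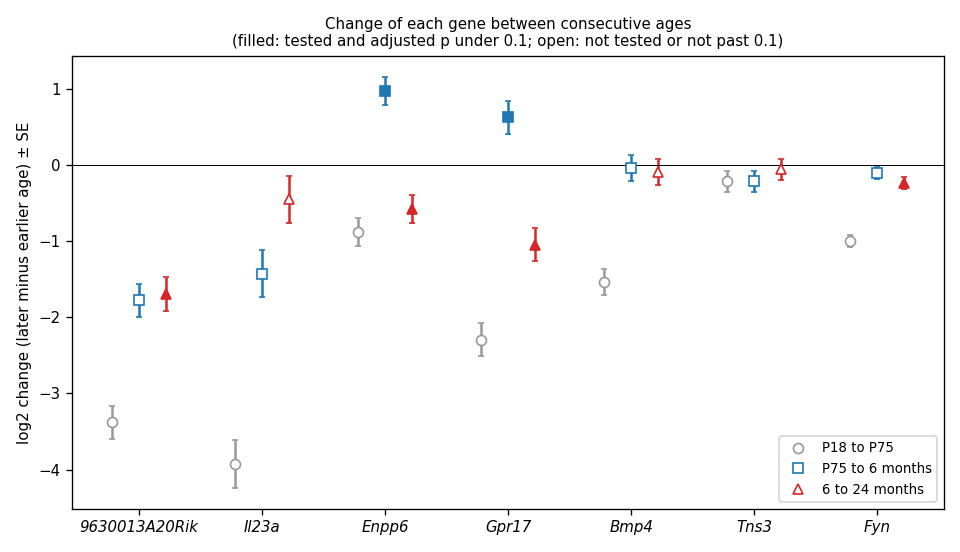
Log2 change of normalized read count + 1 (later minus earlier age, ± SE from limma, 3 libraries per age) of each gene between consecutive ages, with filled symbols for tested changes at an adjusted p under 0.1. From P18 to P75 all 7 points are below 0, with no test; Enpp6 and Gpr17 are the filled points above 0.

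From P18 to P75, 6 of the 7 genes were lower in every P75 library than in any P18 library, against 22.6% of the 14634 genes tested. This count is a description, since the genes were chosen with earlier results of this comparison known and Il23a and 9630013A20Rik were known as its leading falls. Ordered by the change, Il23a had the largest fall of all 14634 genes, 9630013A20Rik the 3rd, Gpr17 the 12th, Bmp4 the 46th, Fyn the 252nd, Enpp6 the 380th and Tns3 the 4075th. The median change of the 7 was −1.54, and that of all genes was 0.02. From P75 to 6 months, 5 of the genes were tested, of which 2 rose (Enpp6 and Gpr17) and 0 fell. Over all genes in that comparison 31.2% rose and 29.4% fell, so 2 of 5 is near the background. From 6 to 24 months all 7 were tested, Il23a on few reads, of which 4 fell (9630013A20Rik, Gpr17, Enpp6 and Fyn) and 0 rose, where 12.7% of all genes fell and 16.6% rose. The counts of 0 were also 0 at an unadjusted p under 0.05 and with edgeR and DESeq2. By the fitted log2 change, 9630013A20Rik and Gpr17 were among the 68 genes, 0.465% of all, that fell over 2-fold, and by the ratio of means Gpr17 was 1.97-fold lower. Neighbouring comparisons share the libraries of the age between them, and a high value at 6 months enters the rise before it and the fall after it. In the same way, a low value at P75 enters the fall before it and the rise after it. The p-values from P75 to 6 months are therefore not independent of the comparison known when the genes were chosen.

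**Figure D3:**
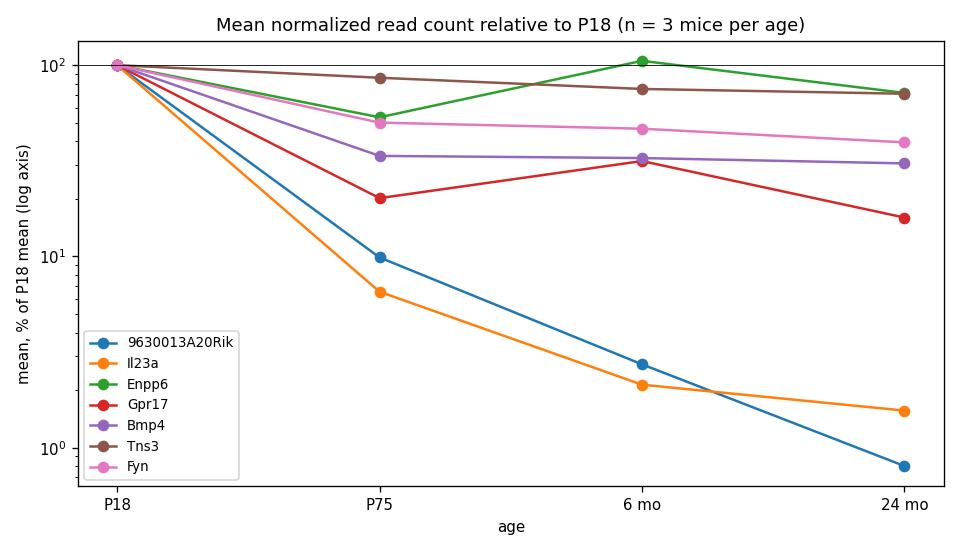
Mean normalized read count of each gene (n = 3 mice per age) as a percentage of its P18 mean, on a log axis, with the 4 ages drawn at equal spacing. 9630013A20Rik ends at 0.802% and Il23a at 1.56%, while Enpp6 returns to 105% at 6 months and Tns3 ends at 70.9%.

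The share of the fall that was complete by P75 differed between the genes. Of the log2 difference between the P18 and 24 month means, 92.4% was reached by P75 for Bmp4, 84.5% for Gpr17, 74.6% for Fyn, 67.6% for Il23a, 49.3% for 9630013A20Rik and 43.4% for Tns3, whose whole difference was only 0.49. For Enpp6 the P75 mean was below that at 24 months, so no such share applies. 9630013A20Rik went down by similar log2 steps in both comparisons after P75, while the later ages of Bmp4 overlapped. Per kilobase of merged exon, the P18 means ran from Fyn (1331 ± 16.5), Tns3 (481 ± 67.6), Gpr17 (272 ± 43.5), Il23a (223 ± 16.8) and Bmp4 (85.8 ± 21.4) to Enpp6 (39.9 ± 9.15), and Gpr17 and Il23a overlapped. At 24 months the order was Fyn (525 ± 2.20), Tns3 (341 ± 19.4), Gpr17 (43.5 ± 17.9), Enpp6 (28.6 ± 6.28), Bmp4 (26.3 ± 2.11) and Il23a (3.49 ± 1.82), where Enpp6 and Bmp4 did not differ beyond their spread. Il23a therefore went from near the level of Gpr17 to the lowest of the 6. 9630013A20Rik has no exon length in the annotation used here.

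Since myelin genes themselves changed with age, the levels were also expressed per 10000 normalized counts of 20 mature oligodendrocyte genes, as a description. On this scale 9630013A20Rik went from 22.7–31.9 at P18 to 3.75–6.83 at P75 and 0.233–0.400 at 24 months, and Gpr17 from 22.3–30.8 to 9.60–11.4 and 3.99–9.92. Enpp6 was 2.79–3.53 at P18 and 2.74–4.01 at P75, and Fyn 87.7–152 and 96.1–127, so that the ranges of these ages overlapped for both. Tns3 was 90.4–121 at P18 and 159–188 at P75, the opposite direction from its normalized read count. The sum of the 20 mature genes itself was 376200–669372 at P18 and 244811–303721 at P75. Its part in the changes of Enpp6, Tns3 and Fyn was not tested.

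The profiles closest to each gene were found by the root mean square difference of centred log2 values over the 12 libraries, among genes with a mean of at least 100. The values were not scaled, so genes that change little tend to have near neighbours and genes that change much far ones. For Il23a the nearest was 9630013A20Rik (0.70), followed by Marcksl1 (0.99) and the red blood cell gene Alas2 (1.05). Marcksl1 was also the nearest to 9630013A20Rik (1.27). Kif19a (1.38) and Sirt2 (1.43) followed for 9630013A20Rik, so the nearest genes above that mean were over 1 log2 unit away, while Il23a, below it, was at 0.70. Fyn and Tns3 had much nearer neighbours, such as Ncrna00086 at 0.071 and Ndrg2 at 0.069, as did Bmp4 (Kif26a, 0.15) and Enpp6 (Prmt2, 0.18). Gpr17 was nearest to Cnp (0.37), a gene of myelinating oligodendrocytes, and Parvb (0.37). Among the 7 themselves, Bmp4 and Fyn were the most alike (0.28), and Enpp6 and 9630013A20Rik the least (2.49).

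Of the other genes of newly formed oligodendrocytes, a list of 22 of which 21 were tested, 14 fell and 2 rose from P18 to P75, against 22.9% of all genes that fell and 25.9% that rose. The median change was −0.49. This list and those in the paragraphs below were also chosen with earlier results of these data known. Their counts and p-values are therefore a description. Kif19a, a kinesin, fell 3.78-fold from 308 ± 35.2 to 81.4 ± 15.4 (limma, adjusted p = 6.8e-07). Rras2, a Ras family GTPase, fell 3.08-fold, Lims2 2.60-fold and Gp1bb 2.47-fold. Bcas1, by far the most abundant of the list and a gene also found in early myelinating cells, rose from 46351 ± 22933 to 89688 ± 21783 (limma, adjusted p = 0.013). From P75 to 6 months 5 of the 21 rose and 8 fell, near the 31.2% and 29.4% of all genes. Ust, a sulfotransferase, rose 1.83-fold, and Lims2 fell 1.62-fold. In the last comparison 1 rose (Zfp488, a transcriptional repressor, 1.38-fold) and 4 fell, with Chn2 the furthest at 1.30-fold lower. Over all genes 16.6% rose and 12.7% fell in that comparison. With scaling to the mature oligodendrocyte genes the falls numbered 6, 7 and 0 in the 3 comparisons, and from 6 to 24 months 1 fell without 6 month replicate 1, without 24 month replicate 1 or without 24 month replicate 2.

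**Figure D4:**
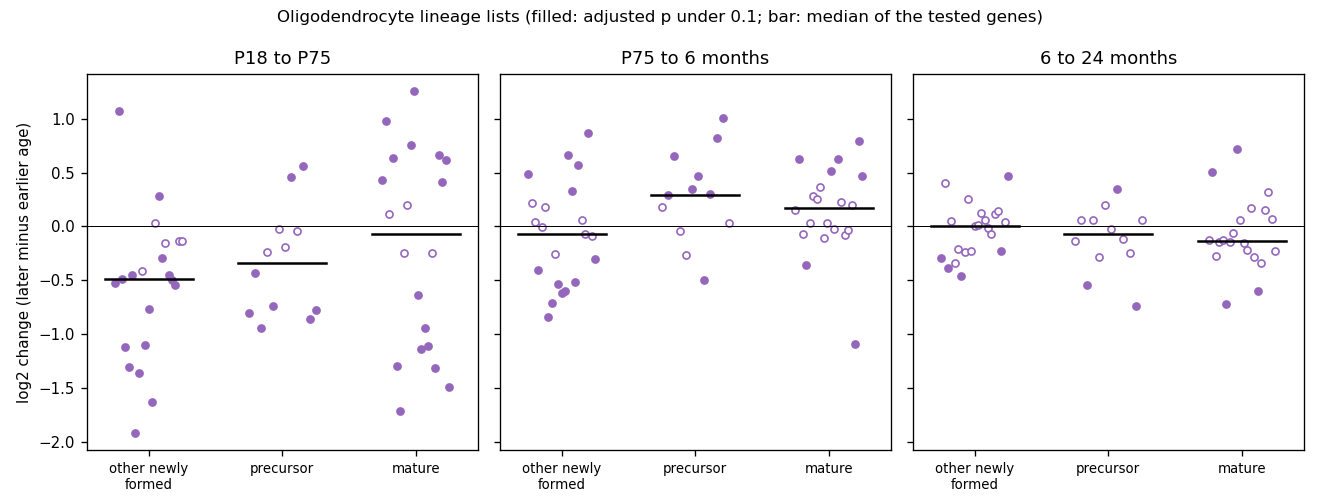
Log2 change of normalized read count + 1 (later minus earlier age) of each tested gene of 3 oligodendrocyte lineage lists, with filled points at an adjusted p under 0.1 (limma) and a bar at the median. The medians from P18 to P75 are −0.49 for the other genes of newly formed cells, −0.34 for precursors and −0.07 for mature cells.

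Of the 12 precursor genes, 6 fell and 2 rose from P18 to P75 (22.9% and 25.9% of all genes), and 7 rose and 1 fell from P75 to 6 months (31.2% and 29.4% of all genes). Sox6, a factor that keeps precursors undifferentiated, had means of 191 ± 18.8, 105 ± 12.9, 213 ± 28.3 and 127 ± 17.2 at the 4 ages, and fell, rose and fell in turn (limma, adjusted p = 0.00022, 2.9e-05 and 0.0036). Ptprz1 rose 1.76-fold from P75 to 6 months, and Pdgfra, the growth factor receptor of precursors, rose by 0.30 on the log2 scale (limma, adjusted p = 0.017) after a change of −0.04 from P18 to P75. Of the 20 mature genes, 8 rose and 8 fell from P18 to P75, with Cnp 3.32-fold and Ugt8a 2.94-fold lower and Klk6 and Apod higher, 5 rose and 2 fell from P75 to 6 months, and 2 rose and 2 fell from 6 to 24 months. In the last of these comparisons 16.6% of all genes rose and 12.7% fell.

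Of 23 tested genes of the BMP pathway, 7 rose and 3 fell from P18 to P75, the comparison in which Bmp4 was 2.98-fold lower and 25.9% of all genes rose and 22.9% fell. The inhibitors Nog and Chrd, which bind the ligand, rose 1.69-fold and 1.43-fold, with overlapping libraries for Chrd, and the receptor Acvr1 rose 1.47-fold. The means of the receptors Bmpr1a and Bmpr1b went from 1081 ± 128 to 1528 ± 187 and from 382 ± 57.7 to 555 ± 70.4. The target gene Id3 fell 1.76-fold and Id1 and Id4 also fell. Id2, the most abundant Id gene, had means of 6075 ± 166 and 6086 ± 689. From P75 to 6 months 8 rose and 7 fell, near the 31.2% and 29.4% of all genes. Bmp6 rose 4.43-fold and the receptor Bmpr2 3.51-fold, with Bmp5, Bmp7, Acvr1, Acvr2a, Bmpr1a and the pseudoreceptor Bambi, and the falls were Id1 to Id4, Smad1, Smad7 and Smad9. From 6 to 24 months 5 rose, among them Chrd (1.69-fold) and Nog, and 2 fell, where 16.6% of all genes rose and 12.7% fell. Bmp4 itself did not pass the test in either later comparison.

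Around Fyn, 16 of 20 genes were tested, and 5 rose and 4 fell from P18 to P75, near the 25.9% and 22.9% of all genes. The phosphatases Ptpn11 and Ptpra, of which the latter removes the inhibitory phosphate of Src kinases, rose 1.73-fold and 1.69-fold, and Csk, the kinase that adds it, fell 1.39-fold. The relatives Src and Lyn fell in the same comparison, by 0.43 and 0.35 on the log2 scale (limma, adjusted p = 0.0093 and 0.015), less than the change of −1.001 in Fyn. From 6 to 24 months 2 rose and 2 fell, with Src 1.25-fold lower, where 16.6% of all genes rose and 12.7% fell. Around Tns3, 12 of 14 tensin and focal adhesion genes were tested, with 2 rising and 2 falling from P18 to P75, also near or below those shares. The tensin Tenc1 rose 1.46-fold, and the adaptors Pxn and Bcar1 fell 1.30-fold and 1.26-fold. The integrin subunit Itga6 rose 3.15-fold from P75 to 6 months and fell 1.56-fold after it, and from 6 to 24 months 1 gene (Vcl) rose and 4 fell.

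Of 7 tested P2Y and cysteinyl leukotriene receptor genes related to Gpr17, 4 rose and 0 fell from P18 to P75. In that comparison 25.9% of all genes rose and 22.9% fell, and Gpr17 was 4.96-fold lower. Among the 4 were P2ry12 and Gpr34, known from microglia, which rose 1.27-fold and 1.47-fold, both with overlapping libraries. Of 5 tested Enpp family genes, 4 rose and 0 fell in that comparison, in which Enpp6 was 1.87-fold lower, with Enpp5 1.84-fold, Enpp4 1.77-fold and Enpp2 1.63-fold higher, and all 5 rose from P75 to 6 months, where 31.2% of all genes and Enpp6 rose. Of 8 tested genes around Il23a, 0 rose and 3 fell from P18 to P75, Stat3, Ebi3 and Il12rb1. Il12b, the partner subunit of Il23a, and the receptor Il23r were below a mean of 10 and were not tested. Of 4 protocadherins, the family of Pcdh17 near 9630013A20Rik, 3 rose and 0 fell from P18 to P75, and Pcdh17 rose 2.23-fold from P75 to 6 months. The counts of 0 in these 4 families from P18 to P75 stayed at 0 at an unadjusted p under 0.05 and with edgeR and DESeq2.

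Other cell types in the preparation also moved with age. All 8 microglial markers were present in each library, and their summed level went from 3496–4669 at P18 to 5467–6465 at P75, 6924–7890 at 6 months and 9297–10630 at 24 months. Of the 10 neuronal markers 6 rose and 3 fell from P75 to 6 months, the comparison in which Enpp6 and Gpr17 rose. Over all genes 31.2% rose and 29.4% fell in it. Syt1 was 5.06-fold and Slc17a7 2.62-fold higher, although the summed level of the 10 markers went from 202502–231195 to 185166–190503. The largest part of that sum was Snap25, with means of 141430 ± 10020 at P75 and 88328 ± 1195 at 6 months. The sum therefore does not give the direction of the other markers. The summed level of the 8 astrocyte markers was 97077–116892 at P18 and 97501–106294 at 24 months, and that of the 8 endothelial markers 707–800 and 663–755. The red blood cell gene Alas2 was 416 ± 55.1 at P18 and 41.1 ± 4.32 at P75, 10.1-fold lower, close to the fall of 9630013A20Rik. Slc4a1, another red blood cell gene, was also lower, with means of 34.9 ± 6.17 at P18 and 2.92 ± 1.77 at P75. The globin genes Hbb-b1, Hbb-b2, Hba-a1 and Hba-a2 were listed at 0 in all 12 libraries. The part of these cell types in the changes of the 7 genes was not tested.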

How the data were processed

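Myelin RNA was sequenced from 12 mice, 3 at each of 4 ages, and samples were grouped by the age in the labels. Reads were mapped by the authors to the mm9 build using TopHat, assigned to genes using HTSeq-count, and the gene counts were normalized by DESeq (per the submitters' processing notes, TopHat2 2.0.8, SAMtools 0.1.19 and HTSeq 0.5.4p1). The deposited signal is the normalized read count of 21937 genes. Dividing by the smallest step of a library returned whole reads for 100% of the values (tolerance 0.02) and so gave the depth, 20299052 to 27214385 reads on genes per library. Reads that match several genes or overlapping genes were handled by the authors and could not be varied.

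Ages were compared with limma 3.58.1 (R 4.3.3; empirical Bayes with an intensity trend). The input was the log2 of the normalized read count plus 1, in 1 fit over the 12 libraries with age as the factor, for 14634 genes with a mean of at least 10. P-values were adjusted by Benjamini-Hochberg over all of them and a change was called at an adjusted p under 0.1. Fold changes on this scale understate those of low genes. Replicates are single mice, and an exact test of 3 against 3 could not go below 0.1. The 7 genes and all lists were chosen with earlier results of these data known. No p is given for the 7 from P18 to P75, nor for Il23a and 9630013A20Rik from P75 to 6 months, which share the P75 libraries. The other 5 were tested from P75 to 6 months on those same P75 libraries. Genes of each list were named by rule, as the up to 4 changed most from P18 to P75 and the up to 2 in each later comparison among those called with a mean of at least 100 at 1 of the ages. Some genes that this rule names are not reported here. Bcas1, Klk6, Apod, Pdgfra, Src, Lyn, Ebi3, Il12rb1 and the remaining BMP pathway genes were named after their values were seen.

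Same-numbered libraries come from different mice. Their deviations correlated at 0.161, 0.101 and 0.187 between P75 and 6 months, at −0.026 to −0.151 between P18 and P75 and at −0.060 to −0.213 between 6 and 24 months. The numbers were not used to pair libraries in the main fit, and the replicate block was run only as an alternative. The method was tested on simulated data. Positions are from GENCODE vM1 on NCBIM37, and promoters from RefSeq on GRCm38.p6.

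The alternatives were other pseudocounts (0.5, 10), no filter or a mean over 100, the libraries of the 2 ages alone, the replicate block, scaling to the same total or to the median ratio of 20 mature oligodendrocyte genes, quantile normalization, edgeR 4.0.16 and DESeq2 1.42.0 on the recovered reads, a threshold of 0.05, and each library left out in turn. On the recovered reads edgeR called 7080, 8948 and 4585 of the 14634 genes changed in the 3 consecutive comparisons, and limma 7137, 8865 and 4287.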

Additional observations from a re-analysis of the deposited data

How the results depend on the processing

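Among 24 alternatives, the falls of 9630013A20Rik and Gpr17 from 6 to 24 months (log2 changes of −1.92 to −1.18 and −1.34 to −0.72) and the rise of Enpp6 from P75 to 6 months (0.81 to 1.05) passed the test in every one. Scaling to the mature oligodendrocyte genes moved the median change of all genes by 0.25, −0.16 and 0.12 in the 3 comparisons, and scaling to the same total moved it by 0.12 from P18 to P75. Under the former, members that rose from P75 to 6 months went from 2 to 1 and members that fell from 6 to 24 months from 4 to 2. Genes of the context lists that fell went from 48 to 21 (P18 to P75) and from 18 to 0 (6 to 24 months), and those that rose from 59 to 26 (P75 to 6 months) and from 21 to 8 (6 to 24 months). Tns3 reversed from P18 to P75, at 0.044 instead of −0.21. By construction, that scaling sets the median ratio of the mature genes alike in all libraries and moves all other genes against it. A filter for a mean over 100 moved the median change of the members from P18 to P75 from −1.54 to −1.001, because Il23a and Bmp4 were dropped. For the context genes that fell from 6 to 24 months, the fit of the 2 ages alone gave 29 and a threshold of 0.05 gave 10, and the cause was not tested.

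With each library left out in turn, members that rose from P75 to 6 months numbered 1 to 2, members that fell 0 to 1, and members that fell from 6 to 24 months 2 to 4, with 2 left without 6 month replicate 2 or 24 month replicate 1. Context genes that fell from 6 to 24 months numbered 6 to 26, with 6, 11, 7 and 9 without 6 month replicates 1 and 2 and 24 month replicates 1 and 2. The replicate block changed no call of the members (Fyn from 6 to 24 months, adjusted p = 0.053; Gpr17 from P75 to 6 months, 0.036, limma), and over all genes 6968, 8695 and 3996 changed against 7137, 8865 and 4287 without it. Over all genes from 6 to 24 months, 482 changed with scaling to the mature genes, 2856 at a threshold of 0.05, and 2478 to 5323 with a library left out; that scaling gave 4222 from P18 to P75 and 5073 from P75 to 6 months. Rising genes made up 53.0%, 51.4% and 56.8% of calls in the 3 comparisons, 72.2% from P18 to P75 and 46.3% from 6 to 24 months with scaling to the same total, and 89.7%, 32.3% and 86.5% with scaling to the mature genes. Depth limits Il23a and 9630013A20Rik after P75, which rest on few reads.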
